A study of Mus musculus with 6 samples.

Results

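The subject of this report is a set of 38 genes for calcium handling and entry in primary oviductal smooth muscle cells of the mouse. The set was defined by function, as a list of gene symbols drawn up with earlier results of these data known: pores and auxiliary subunits of L-type and T-type voltage-gated channels, store-operated entry genes, TRP and mechanosensitive channels, release channels of the sarcoplasmic reticulum, pumps and exchangers, store proteins, the mitochondrial uniporter and calmodulin kinases. All 38 were found by symbol among the 54232 genes of the count table, and 35 of them were among the 15376 genes with enough counts to be tested. The remaining 3 (Pln, Casq2 and Ryr3) had too few counts.

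To examine these genes when Pbrm1 is lost, RNA-seq libraries from 3 WT and 3 Pbrm1 cKO samples were compared. Pbrm1 encodes polybromo-1, which targets a SWI/SNF remodeling complex to chromatin. All females were 8 to 12 weeks old, had been mated with a stud male and were at day 2 of pregnancy. Cells came from an enzymatic digest of the oviduct and were kept for several hours in serum before lysis. The labels give the genotypes only as WT and cKO, with no strain and no cre driver for these cells. In the uterine experiments of the study, Pbrm1 was deleted with a cre expressed from the progesterone receptor locus, and a legend in its supplement calls the control mice floxed rather than WT. The same legend calls the replicates biological, but whether a library came from 1 female or from a pool is not stated, so p-values measure only the spread between these samples.

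Smooth muscle contracts when cytosolic Ca2+ rises. Ca2+ enters from outside through voltage-gated, store-operated and TRP channels and leaves the sarcoplasmic reticulum through IP3 receptors and ryanodine receptors. SERCA pumps refill the store, plasma membrane pumps and the Na+/Ca2+ exchanger expel Ca2+, and mitochondria take up a part of it through the uniporter. In the oviduct, contractions of this muscle, together with beating cilia, move eggs and early embryos.

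Library totals lay between 15390818 and 18947947 counts, so that 3 counts, taken as the detection limit, equalled 0.158 to 0.195 CPM (library-size-normalized counts, with TMM factors). Such limits cover counting error only. Pbrm1 was at 170, 183 and 172 CPM in WT and at 43.5, 50.7 and 42.7 CPM in cKO libraries, and the cKO mean was 26.0% of the WT mean. The highest of the 3 cKO values was that of cKO replicate 2. Mitochondrial genes took 7.95% to 8.24% of the counts in WT and 6.88% to 7.81% in cKO libraries. Most of this was 1 ribosomal RNA gene, mt-Rnr2, at 7.05% to 7.21% in WT and 6.14% to 6.97% in cKO. Differences were tested for every gene with edgeR's quasi-likelihood test, with Benjamini-Hochberg adjustment over all tested genes, and a gene is described as having risen or fallen where the adjusted p-value was under 0.05. By this rule 6723 genes differed.

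The labelled cell type was compared with its markers. All 8 smooth muscle markers were detected, with Acta2 at 1287 CPM and Myh11 at 88.2 CPM in the WT mean, and their sum ran from 3418 to 3482 CPM in WT and from 4192 to 4670 CPM in cKO libraries, with 5 markers that rose and 1 that fell. Other cells were present as well. The sum of 8 epithelial markers, Epcam included, was 878 to 954 CPM in WT and 1093 to 1219 CPM in cKO (6 rose). For 10 leukocyte markers it was 249.6 to 261 and 387 to 408 CPM (8 rose, Ptprc among them, while Cd3e and Cd79a were too low to test). For 8 fibroblast markers it was 1004 to 1024 and 1708 to 1837 CPM (6 rose, with Pdgfra among them, and 1 fell). Endothelial markers summed to 352 to 373 CPM in WT and 297 to 308 CPM in cKO (2 of 8 rose and 1 fell, and Pecam1 was not called). Mesothelial markers summed to 199 to 209 and 152 to 153 CPM (3 of 5 fell). Markers of interstitial pacemaker cells, of which 2 of 3 rose, Kit among them, summed to 37.05 to 38.01 CPM in WT and 33.5 to 39.4 CPM in cKO. Neuronal and Schwann cell markers stayed at or below 14.0 CPM in sum in every library (2 of 7 could be tested, of which 1 rose), and striated muscle markers at or below 11.9 CPM (3 of 10 could be tested, of which 2 fell, and Myh1 and Myog were at 0 in all libraries). Of the 53 markers that could be tested, 38 were called (71.7%), of which 30 rose and 8 fell. Among all tested genes 43.7% were called, with 21.9% that rose and 21.8% that fell. By cell type, the called share ran from 37.5% of the tested endothelial markers to 100% of the tested leukocyte markers. These shifts in markers accompany every result below, and their part in the results was not tested. In such bulk samples fewer cells of a type and less RNA per cell cannot be told apart.

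Of the 35 tested calcium genes, 19 differed between WT and Pbrm1 cKO cells (54.3%), against a background of 43.7% among all tested genes. The direction was divided: 9 rose (25.7%, against 21.9% of all tested genes) and 10 fell (28.6%, against 21.8%). These shares are descriptions, and the set was not tested against other genes. In 23 of the 35 (65.7%) the ranges of the WT and cKO libraries did not overlap, as was the case for 53.5% of all tested genes. The median log2 fold change of the tested members was 0.06 and the median size of change was 0.26 on the log2 scale, beside 0.00 and 0.22 for all tested genes. Most changes were small. The called members ranged from -1.30 to 1.23 in log2 fold change, and 2 of them, Trpc6 and Cacna1g, passed 2-fold.

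**Figure D1:**
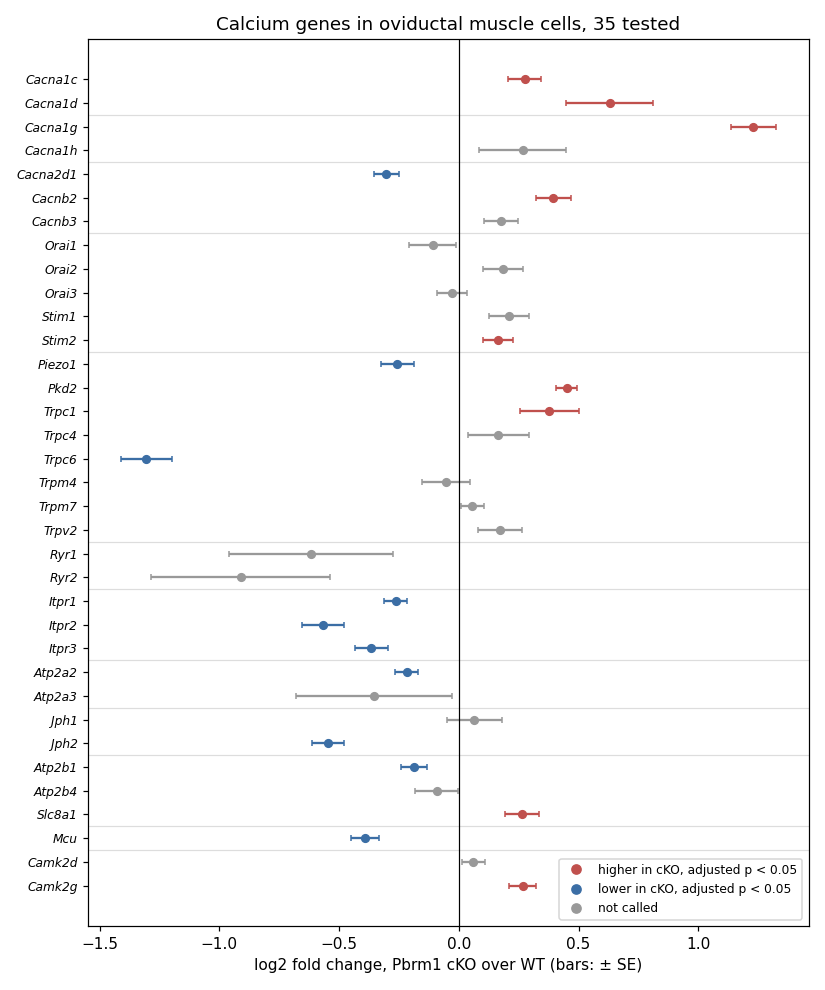
Log2 fold change of Pbrm1 cKO over WT (x axis) for the 35 tested calcium genes, grouped by role from voltage-gated pores (top) to calmodulin kinases (bottom), where points are edgeR estimates from 3 libraries per group, bars are ± SE and colors mark genes that rose, fell or were not called. Cacna1g at 1.23 and Trpc6 at -1.30 lie farthest from 0, all 3 IP3 receptor genes lie to the left, and the wide bars of Ryr1, Ryr2 and Atp2a3 belong to genes with few counts.

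Promoter windows were then compared. RefSeq entries for GRCm38.p6 gave 39 windows of the 250 bases before a gene start, for 30 of the 38 genes. No entry was matched for Atp2a2, Cacna1g, Cacna1h, Camk2g, Itpr1, Jph1, Ryr3 and Trpm4. The motifs searched on both strands were the GC box, the TATA box, the CCAAT box and the CArG box, which is the core of the serum response element known from smooth muscle genes. The GC box was searched as GGGCGG. Its complement was read as CCGCCC. The TATA box was searched as TATAAA. The GC box stood in 22 member windows (56.4%) and in 32.7% of all 32851 windows, and the median GC content was 62.8% in member windows and 52.4% in all windows, so these 2 properties are not separate. The CCAAT box stood in 12 member windows (30.8%, against 33.8% of all), the TATA box in 4 (10.3%, against 12.4%) and the CArG box in 1 (2.56%, against 1.47%). A match describes the letters of a window and is not evidence of a bound factor. The single CArG match was in front of Trpc6, the member with the largest decrease, and started 122 bases before the gene start. Its window (chr9:8543892-8544141, plus strand, GRCm38.p6) is shown first, with the CArG box in capitals. The windows of Itpr2 (chr6:146502224-146502473, minus strand) and Itpr3 (chr17:27057054-27057303, plus strand) are shown because all IP3 receptor genes fell, with GC boxes in capitals. Itpr2 has 4 GC boxes, starting 132 to 38 bases before the gene start, and Itpr3 has 1, starting 66 bases before it. No CArG box was found in either of these windows.
Trpc6: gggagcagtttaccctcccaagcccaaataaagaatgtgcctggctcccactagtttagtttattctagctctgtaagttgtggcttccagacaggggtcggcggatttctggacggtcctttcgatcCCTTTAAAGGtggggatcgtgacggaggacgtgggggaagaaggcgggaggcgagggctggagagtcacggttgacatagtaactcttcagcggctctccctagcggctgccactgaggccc
Itpr2: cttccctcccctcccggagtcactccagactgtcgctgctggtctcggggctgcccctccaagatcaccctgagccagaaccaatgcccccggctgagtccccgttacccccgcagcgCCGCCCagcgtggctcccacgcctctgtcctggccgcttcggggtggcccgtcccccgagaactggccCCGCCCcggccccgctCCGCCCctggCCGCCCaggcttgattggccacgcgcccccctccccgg
Itpr3: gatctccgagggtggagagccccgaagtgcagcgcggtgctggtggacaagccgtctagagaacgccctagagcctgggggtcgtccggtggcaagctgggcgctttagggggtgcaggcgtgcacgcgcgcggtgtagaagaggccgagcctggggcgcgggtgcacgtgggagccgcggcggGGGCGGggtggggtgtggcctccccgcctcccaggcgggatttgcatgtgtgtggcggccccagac

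Voltage-gated entry was considered first. Cacna1g, which encodes the T-type pore Cav3.1 that opens at low voltage, was at 13.5, 11.8 and 11.8 CPM in WT and at 32.5, 27.0 and 27.5 CPM in cKO libraries. Every cKO library lay above every WT library by a wide margin. Cacna1g rose 2.35-fold (log2 fold change 1.23, SE 0.093, adjusted p = 2.94e-07) and kept its call in all 14 alternative analyses. Cacna1h, the Cav3.2 pore, was low, with a mean of 2.91 ± 0.300 CPM in WT libraries against 3.51 ± 0.652 CPM in cKO libraries (SD, n = 3), and its groups overlapped (log2 fold change 0.27, SE 0.18, adjusted p = 0.262).

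Cacna1c encodes Cav1.2, the L-type pore that carries most voltage-dependent Ca2+ entry in smooth muscle. It was at 62.7, 55.8 and 52.4 CPM in WT and at 69.3, 73.4 and 63.8 CPM in cKO. The groups did not overlap, although WT replicate 1 and cKO replicate 3 differed by little, and the rise was 1.21-fold (log2 fold change 0.27, SE 0.071, adjusted p = 0.00638). Cacna1d, the Cav1.3 pore, was much lower, at 2.07, 2.41 and 2.22 CPM in WT and 2.92, 4.03 and 3.41 CPM in cKO. It rose 1.55-fold (log2 fold change 0.63, SE 0.18, adjusted p = 0.0129), but this call was lost with DESeq2 (adjusted p = 0.0502) and without cKO replicate 2 (adjusted p = 0.0539).

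The auxiliary subunits did not move in 1 direction. Cacna2d1 encodes the alpha2delta-1 subunit, which promotes the surface expression of the pores. Its values were 94.5, 91.4 and 94.1 CPM in WT and 74.2, 80.2 and 72.6 CPM in cKO, and with all cKO libraries below all WT libraries it fell (log2 fold change -0.30, SE 0.051, adjusted p = 0.000321). By contrast, Cacnb2, an intracellular beta subunit that supports trafficking and gating, went from 16.3, 16.2 and 16.5 CPM to 22.0, 20.6 and 21.7 CPM. The 3 WT libraries were nearly equal and the rise was 1.31-fold (log2 fold change 0.39, SE 0.073, adjusted p = 0.000702). Cacnb3, another beta subunit, was at 30.9, 30.9 and 32.1 CPM in WT and 38.01, 32.1 and 36.0 CPM in cKO, where cKO replicate 2 was level with the highest WT library. It was not called (log2 fold change 0.18, adjusted p = 0.0583), was called without cKO replicate 2 (adjusted p = 0.00569), and also under library size scaling and under the replicate block.

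The shares of the 4 L-type and T-type pores were compared next. Levels of different genes are compared only per length, as RPKM (CPM per kilobase of annotated exon). The RPKM of the 4 pores summed to 4.38 ± 0.359 in WT and 6.74 ± 0.385 in cKO (SD, n = 3). Cacna1c held 61.8%, 61.6% and 60.4% of this sum in WT and 45.9%, 51.4% and 47.3% in cKO libraries. The Cacna1g share went from 27.8%, 27.3% and 28.5% to 45.0%, 39.6% and 42.6%. Neither share overlapped between the groups, and Cacna1c remained the largest of the 4 in every library. The exact permutation test (two-sided) gave p = 0.1 for each of these shares, which is the smallest value that 3 against 3 allows, and 0.154 after adjustment over the 20 family shares tested. Of those 20 shares, 13 stood at this minimum, so it is not particular to these pores. The sum leaves out Cacna1a, the P/Q-type pore from the further calcium genes described at the end, which fell from 0.717 ± 0.0964 to 0.497 ± 0.00964 RPKM (log2 fold change -0.53, SE 0.13, adjusted p = 0.004) and was picked for mention after its values were seen. Cacna1d had 4.06% ± 0.559 in WT and 4.08% ± 0.761 in cKO.

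In store-operated entry, 1 of 5 genes was called. Orai genes encode the pore in the plasma membrane, and Stim genes encode the sensors that open it when the store is empty. Per length, Orai3 was the most abundant of the 3 pores, with 65.2% ± 0.945 of the summed Orai RPKM in WT and 64.3% ± 1.05 in cKO (SD, n = 3). Its CPM were 29.4, 28.3 and 29.3 in WT and 28.6, 28.9 and 27.7 in cKO, which overlap (log2 fold change -0.03, SE 0.062, adjusted p = 0.736). Orai1 was at 9.59 ± 0.370 and 8.88 ± 0.308 CPM and was not called (log2 fold change -0.11, adjusted p = 0.398). Orai2 was at 19.9, 18.9 and 16.9 CPM in WT and 21.1, 19.8 and 22.5 CPM in cKO, and cKO replicate 2 lay just below WT replicate 1. Its log2 fold change of 0.18 had an adjusted p of 0.094, and of 0.0400 without cKO replicate 2. The share of Orai1 was 20.1% ± 0.347 in WT and 18.8% ± 0.431 in cKO, and that of Orai2 was 14.7% ± 1.08 and 16.9% ± 1.16. Neither of these 2 shares overlapped between groups (exact permutation p = 0.1 for each, 0.154 after adjustment). The summed Orai RPKM was 20.8 ± 0.504 in WT and 20.6 ± 0.243 in cKO.

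Of the sensors, Stim2, which responds to small falls in store Ca2+, was at 36.9, 39.8 and 40.0 CPM in WT and 41.2, 43.9 and 45.8 CPM in cKO. The groups did not overlap but lay close, and the 1.12-fold rise had the highest adjusted p-value of the 19 calls (log2 fold change 0.16, SE 0.062, adjusted p = 0.0479). It was lost in 10 of the 14 alternatives, with adjusted p-values up to 0.182. Stim1, the main sensor in most cells, was at 33.9, 32.5 and 36.4 CPM in WT and 45.2, 35.8 and 37.6 CPM in cKO. Only cKO replicate 1 was clearly higher. Its log2 fold change of 0.21 was just not called (SE 0.084, adjusted p = 0.0594) and was called in 5 of the 14 alternatives, with adjusted p-values from 0.0078 to 0.319 over all of them.

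**Figure D2:**
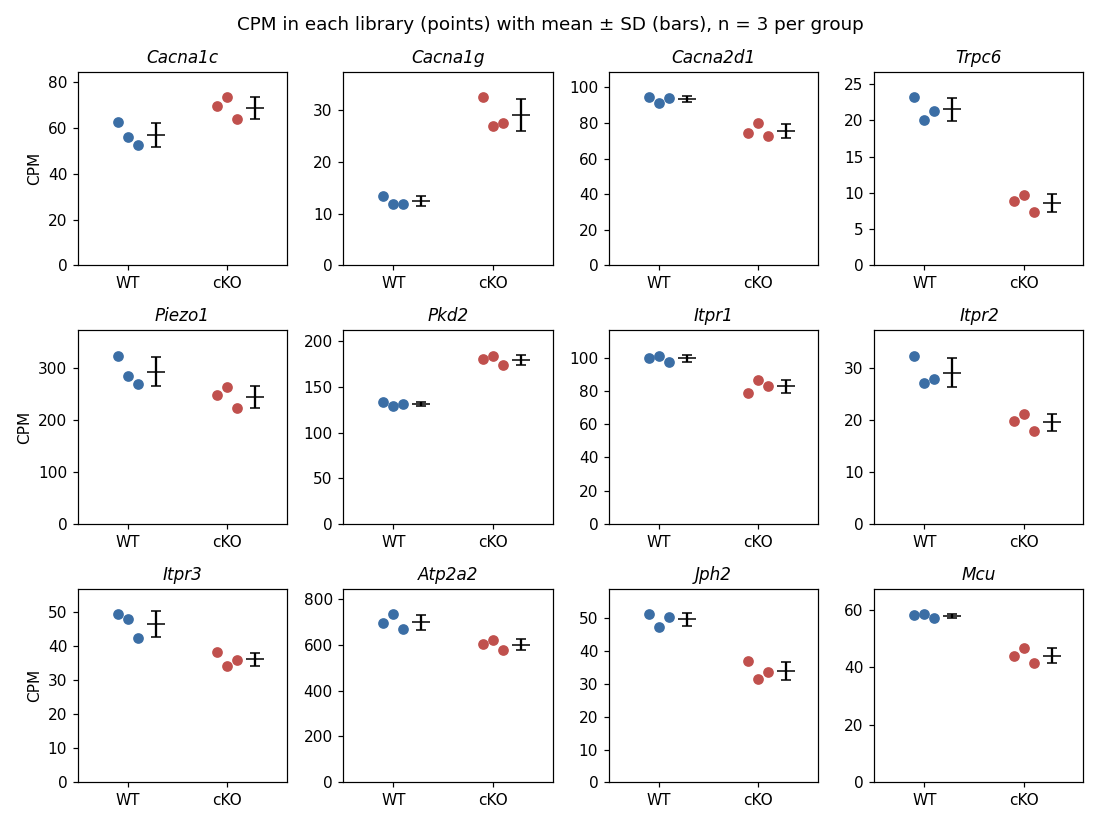
CPM in each library (points; y axes start at 0) for 12 calcium genes in WT and Pbrm1 cKO, with the mean ± SD beside the points (n = 3 per group). The 12 genes were picked from the 19 called members, none of which overlapped between the groups, so no panel shows overlap. Of all tested genes, 53.5% did not overlap. Trpc6 is at 20.05 to 23.2 CPM in WT and 7.33 to 9.76 CPM in cKO, while the gap between the groups is narrow for Cacna1c and Piezo1.

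Among the TRP channels, Trpc6 had the largest decrease of all 35 tested members. It encodes a non-selective cation channel that is opened by diacylglycerol downstream of receptors coupled to phospholipase C. Trpc6 was at 23.2, 20.05 and 21.4 CPM in WT and at 8.88, 9.76 and 7.33 CPM in cKO libraries. The highest cKO library was below 50% of the lowest WT library, and the mean in cKO was 40.2% of that in WT (log2 fold change -1.30, SE 0.11, adjusted p = 5.24e-07). The call held in all 14 alternatives, in which the log2 fold change lay between -1.40 and -1.21. Of all tested genes, 3.65% had a change of larger size. Trpc1, which can form channels with other TRPC proteins, moved the other way, from 11.1, 8.66 and 7.79 CPM to 12.6, 11.3 and 11.8 CPM. WT replicate 1 was nearly level with the lowest cKO library. The 1.30-fold rise (log2 fold change 0.38, SE 0.12, adjusted p = 0.0237) was lost when WT replicate 2, WT replicate 3 or cKO replicate 1 was left out (adjusted p = 0.0874, 0.114 and 0.0886). Trpc4, a receptor-operated channel, was at 8.98, 7.59 and 9.13 CPM in WT and 10.8, 7.96 and 10.1 CPM in cKO. It overlapped between groups and was not called (log2 fold change 0.17, adjusted p = 0.328), though it was called without cKO replicate 2 (adjusted p = 0.0497).

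Shares were likewise compared for the 3 TRPC members, with Trpc5 outside the sum. Trpc6 held 64.8%, 66.2% and 66.7% of the summed TRPC RPKM in WT and 37.6%, 44.6% and 34.7% in cKO libraries. The share of Trpc1 was 17.6% ± 2.09 in WT and 33.8% ± 1.31 in cKO, and that of Trpc4 was 16.5% ± 1.26 and 27.3% ± 3.85 (SD, n = 3). For none of the 3 genes did the shares overlap (exact permutation p = 0.1 for each, the minimum, and 0.154 after adjustment). The family sum went from 6.46 ± 0.561 to 4.39 ± 0.253 RPKM. Shares within a family add up to 100%, so the higher shares of Trpc1 and Trpc4 include the effect of the lower Trpc6 level.

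**Figure D3:**
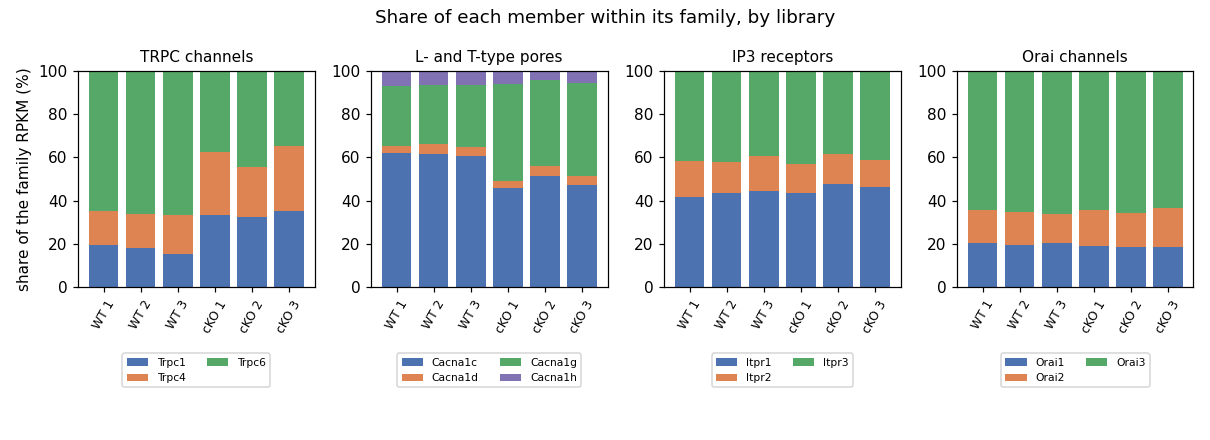
Share of each gene in the summed RPKM of its family (y axis, percent; stacked bars add up to 100) in each of the 6 libraries, for TRPC channels, L-type and T-type pores, IP3 receptors and Orai channels. Trpc6 takes 64.8% to 66.7% of the TRPC sum in WT and 34.7% to 44.6% in cKO. The Cacna1g part of the pores is larger in each cKO library. The Orai and IP3 receptor bars change by less, although the shares of Orai1, Orai2 and Itpr2 do not overlap between groups either.

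Pkd2 encodes polycystin-2, a cation channel of the endoplasmic reticulum and of cilia. It was at 134, 129 and 131 CPM in WT and 180, 184 and 174 CPM in cKO libraries. The spread within each group was small and the groups were far apart, and Pkd2 rose 1.37-fold (log2 fold change 0.45, SE 0.044, adjusted p = 3.05e-06). Among the members, Cacna1g and Trpc6 alone had lower adjusted p-values. Piezo1, a channel opened by membrane stretch, was at 323, 284 and 269 CPM in WT and 247, 263 and 222 CPM in cKO. WT replicate 3 and cKO replicate 2 lay close together. Piezo1 fell (log2 fold change -0.26, SE 0.071, adjusted p = 0.0095), but without WT replicate 1, the highest library, the adjusted p was 0.0568. Of its exon bases, 24.6% are also covered by Ctu2 on the opposite strand, and counting was by strand. The other 3 channels of this class overlapped between groups. Trpm7, a channel fused to a kinase that conducts Mg2+ and Ca2+, was at 134 ± 5.44 and 139 ± 2.96 CPM (log2 fold change 0.06, adjusted p = 0.349). Trpm4, which is activated by Ca2+ and conducts monovalent cations, was at 14.0 ± 0.989 and 13.5 ± 1.48 CPM (-0.05, adjusted p = 0.71). Trpv2, a further cation channel, was at 16.5, 17.1 and 17.7 CPM in WT and 21.6, 17.0 and 19.3 CPM in cKO, with cKO replicate 2 within the WT range (0.17, adjusted p = 0.155, and 0.0181 without that library).

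Release from the store was studied through the IP3 receptors and ryanodine receptors. All 3 IP3 receptor genes, which encode the Ca2+ release channels opened by IP3, fell. Itpr1 was at 99.9, 101 and 97.4 CPM in WT and 78.8, 86.7 and 83.0 CPM in cKO. No cKO library reached the lowest WT library (log2 fold change -0.26, SE 0.050, adjusted p = 0.000739). Itpr2 had the largest decrease of the family, from 32.3, 27.1 and 27.8 CPM to 19.8, 21.1 and 17.8 CPM, or 67.3% of the WT mean (log2 fold change -0.57, SE 0.087, adjusted p = 0.000152). Itpr3 went from 49.3, 48.0 and 42.2 CPM to 38.1, 34.2 and 36.0 CPM (log2 fold change -0.37, SE 0.070, adjusted p = 0.000893). The groups did not overlap for any of the 3 genes, and each call held in all 14 alternatives. The promoter windows of Itpr2 and Itpr3 printed above thus belong to genes that fell by different amounts.

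In sum per length, the IP3 receptors were at 13.1, 12.7 and 11.9 RPKM in WT and at 9.88, 9.96 and 9.74 RPKM in cKO libraries, a difference of 2.71 RPKM between the means of 12.6 and 9.86 with no overlap (exact permutation p = 0.1, the minimum). Their proportions moved less. Itpr1 made up 43.3% ± 1.59 in WT and 45.9% ± 2.06 in cKO, Itpr2 15.6% ± 1.13 and 13.4% ± 0.971, and Itpr3 41.1% ± 1.41 and 40.8% ± 2.38 (SD, n = 3). The share of Itpr2 alone did not overlap between groups, and its adjusted exact p-value was 0.154.

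Ryanodine receptors, the release channels opened by Ca2+ itself, had few counts. Ryr1 had 13 to 15 counts per WT library and 7 to 13 per cKO library, at 0.799 ± 0.0762 and 0.511 ± 0.157 CPM (log2 fold change -0.62, SE 0.34, adjusted p = 0.164). Ryr2 had 12 to 16 and 5 to 11 counts, and its CPM were 0.945, 0.642 and 0.82 in WT and 0.281, 0.584 and 0.386 in cKO. Although these ranges did not overlap, Ryr2 was not called (log2 fold change -0.91, SE 0.37, adjusted p = 0.0639), except without cKO replicate 2 (adjusted p = 0.0353). Ryr3 had 0, 8 and 7 counts in WT and 9, 11 and 7 in cKO and was not tested. In WT the 3 genes together came to 0.0791 ± 0.00574 RPKM, beside 12.6 ± 0.628 RPKM for the IP3 receptors. At this depth a difference in ryanodine receptors of the size seen for Itpr1 could not be resolved.

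The SERCA pump Atp2a2, which returns Ca2+ to the store, was the most abundant member per length, at 115 ± 5.51 RPKM in WT. In CPM it was at 692, 733 and 666 in WT and 602, 621 and 575 in cKO. All cKO libraries were below all WT libraries, and the cKO mean was 86.0% of the WT mean (log2 fold change -0.22, SE 0.048, adjusted p = 0.00249). Atp2a3, the SERCA3 pump, was at 1.31 ± 0.378 and 1.04 ± 0.402 CPM (log2 fold change -0.36, SE 0.33, adjusted p = 0.406), so that Atp2a2 made up 99.8% of the SERCA RPKM in both groups. Pln, which encodes phospholamban, the inhibitor of this pump in heart and some smooth muscles, had 17 counts over all 6 libraries, of which 8 were in cKO replicate 1. Of the Pln exon bases, 59.6% are shared with Gm47644 on the opposite strand. Casq2, the Ca2+ binding protein calsequestrin-2, had 1 to 3 counts per library. Neither gene could be tested.

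Junctophilins hold the plasma membrane and the store close to each other. Jph2 was at 51.2, 47.4 and 50.4 CPM in WT and at 37.0, 31.5 and 33.5 CPM in cKO libraries. The groups were far apart relative to their spread, and Jph2 fell to 68.5% of WT (log2 fold change -0.55, SE 0.068, adjusted p = 2.41e-05). Jph1 was at 9.71 ± 0.712 and 10.1 ± 1.36 CPM (log2 fold change 0.07, adjusted p = 0.682).

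The 3 members that export Ca2+ across the plasma membrane gave 2 calls of opposite sign. Atp2b1, the main plasma membrane Ca2+ pump here with 85.9% ± 1.12 of the RPKM of the pair Atp2b1 and Atp2b4 in WT, was at 140, 148 and 143 CPM in WT and 126, 135 and 117 CPM in cKO. It fell (log2 fold change -0.19, SE 0.053, adjusted p = 0.0118), and the call was lost without WT replicate 2 (adjusted p = 0.0568) or cKO replicate 3 (adjusted p = 0.0506). Atp2b4, another pump of this family, was at 19.02 ± 1.29 and 17.9 ± 1.68 CPM and overlapped (log2 fold change -0.09, adjusted p = 0.433). Slc8a1, the Na+/Ca2+ exchanger NCX1, was at 20.7, 21.9 and 23.5 CPM in WT and 26.5, 27.1 and 25.8 CPM in cKO. Its groups were separate and it rose 1.20-fold (log2 fold change 0.26, SE 0.071, adjusted p = 0.00856). Outside the members, 2 scarce genes fell by more, and they are named after their values were seen. They belong to a further list of pumps and exchangers, not limited to the plasma membrane. Of that list 5 were tested, and none rose and only these 2 fell. The plasma membrane pump Atp2b2 was at 1.65, 1.604 and 1.35 CPM in WT and 0.225, 0.53 and 0.386 CPM in cKO (log2 fold change -1.98, SE 0.33, adjusted p = 0.000287). The exchanger Slc24a5 was at 1.20 ± 0.0652 and 0.388 ± 0.148 CPM (log2 fold change -1.62, SE 0.34, adjusted p = 0.00166).

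Mcu, the pore of the mitochondrial calcium uniporter, was at 58.1, 58.4 and 57.0 CPM in WT and 43.7, 46.8 and 41.5 CPM in cKO. WT libraries were tightly grouped, and Mcu fell to 76.1% of WT (log2 fold change -0.39, SE 0.058, adjusted p = 0.000101). The lower mitochondrial share of counts in cKO libraries, which is mostly mt-Rnr2, moved in the same direction, and its part in this result was not tested. Of the calmodulin-dependent kinases, Camk2g rose from 58.0, 58.4 and 59.7 CPM to 73.8, 65.7 and 72.5 CPM (log2 fold change 0.27, SE 0.056, adjusted p = 0.00161). Camk2d was at 59.1, 58.5 and 59.1 CPM in WT and 61.7, 61.1 and 61.6 CPM in cKO. These ranges did not overlap, but the difference was only 1.04-fold and was not called (log2 fold change 0.06, SE 0.048, adjusted p = 0.341). Per length the share of Camk2d in the pair was 22.2% ± 0.253 in WT and 19.9% ± 0.917 in cKO (exact permutation p = 0.1, adjusted 0.154).

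The order of the members by level per length is plotted for all libraries in the graph of RPKM. In WT, Atp2a2 was followed by Piezo1 at 29.4 ± 2.82 RPKM, a gap far larger than the spread. Orai3 (13.5 ± 0.288), Pkd2 (12.9 ± 0.252), Trpm7 (11.9 ± 0.481) and Jph2 (11.7 ± 0.478) came next, and neighbours in this group such as Trpm7 and Jph2 differed by less than their SD. In cKO libraries Pkd2 was at 17.6 ± 0.533 RPKM and Jph2 at 7.99 ± 0.653 RPKM, so that they moved apart. Cacnb3, Stim2, Cacna2d1 and Slc8a1 lay between 7.51 and 7.80 RPKM in WT. Of these, Cacna2d1 was at 6.09 ± 0.321 RPKM and Slc8a1 at 9.02 ± 0.223 RPKM in cKO. Trpc6 was at 4.25 ± 0.315 RPKM in WT, next to Orai1 at 4.18 ± 0.161, and at 1.71 ± 0.243 RPKM in cKO. Cacna1g was at 1.22 ± 0.0941 RPKM in WT, below Cacna1c at 2.69 ± 0.248, and at 2.86 ± 0.301 RPKM in cKO, where Cacna1c was at 3.25 ± 0.228 RPKM. All members from Cacna1h downwards were below 0.3 RPKM in WT. The RPKM use all annotated exon bases of a gene, so a gene whose cells use a short isoform reads low.

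**Figure D4:**
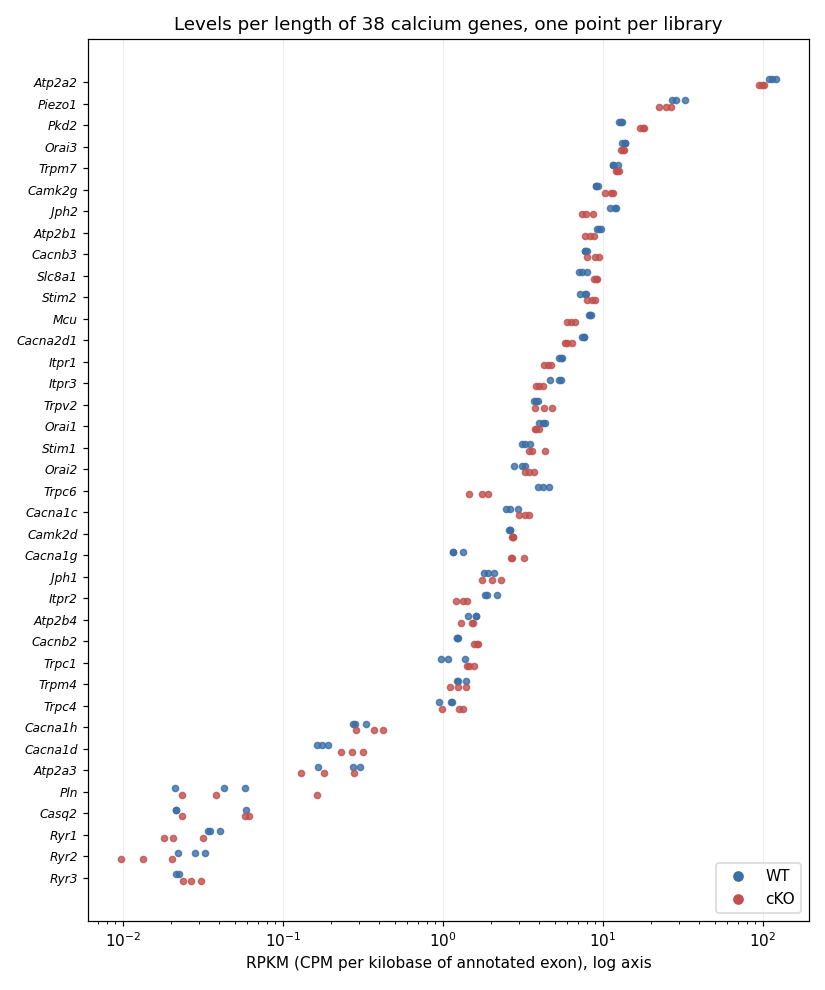
RPKM (x axis, logarithmic) of the 38 calcium genes in each of 3 WT and 3 Pbrm1 cKO libraries, 1 point per library, ordered by level; the WT library with 0 counts of Ryr3 cannot be drawn on a log axis. Levels run from 115 RPKM for Atp2a2 in the WT mean down to the ryanodine receptors, Casq2 and Pln below 0.1 RPKM in nearly every library, and the groups are clearly apart for Trpc6, Cacna1g and Jph2.

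To see whether the rest of the calcium machinery moved in a like manner, 97 further genes were listed: other voltage-gated subunits, other TRP and mechanosensitive channels, other pumps and exchangers, other store proteins, other uniporter subunits, and calmodulin with its kinases, calcineurin and NFAT factors. Of these, 60 were tested and 26 differed (43.3%, level with the 43.7% background), with 14 that rose and 12 that fell and a median log2 fold change of 0.05. By role, 5 of 13 tested store proteins rose and 2 fell, while 2 of 5 pumps and exchangers fell and none rose. Of the calmodulin, kinase, calcineurin and NFAT genes, 4 of 18 rose and 4 fell. Voltage-gated subunits (2 rose and 2 fell of 7) and TRP and mechanosensitive channels (2 and 2 of 11) were divided as well.

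The 8 genes of this list with the largest changes, among called genes with a mean of at least 1 CPM, were examined one by one. Piezo2, a stretch-activated channel related to Piezo1, was at 40.3, 39.5 and 38.5 CPM in WT and at 17.7, 22.2 and 14.8 CPM in cKO, without overlap (log2 fold change -1.10, SE 0.11, adjusted p = 2.38e-06). Trpc5, the closest relative of Trpc4, was at 3.01, 3.80 and 3.22 CPM in WT and 1.41, 1.27 and 1.67 CPM in cKO (log2 fold change -1.22, SE 0.20, adjusted p = 0.000251). Thus decreases were found in both Piezo genes and in Trpc5 as well as Trpc6, while Trpc1 rose. Gem and Rrad are small GTPases that bind beta subunits and inhibit voltage-gated calcium channels, and they moved in opposite directions. Gem was at 13.1, 14.0 and 15.6 CPM in WT and 25.0, 26.0 and 30.9 CPM in cKO (log2 fold change 0.93, adjusted p = 4.81e-06). Rrad was at 14.8, 13.3 and 10.5 CPM in WT and 6.07, 8.43 and 6.05 CPM in cKO (-0.90, adjusted p = 0.000316). Cacng7, which belongs to the gamma subunit family of voltage-gated channels, rose from 8.71 ± 0.231 to 13.7 ± 1.62 CPM (0.65, adjusted p = 0.00024).

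Mcub, a uniporter subunit that lowers Ca2+ uptake when it replaces Mcu in the pore, was at 8.69, 8.77 and 9.25 CPM in WT and 12.4, 12.8 and 16.8 CPM in cKO. It rose (log2 fold change 0.65, SE 0.12, adjusted p = 0.000699) in the same libraries in which Mcu fell, and the other 5 tested uniporter subunits of the list were not called. Nfatc4, a transcription factor activated by calcineurin, rose from 19.5 ± 0.799 to 33.3 ± 1.47 CPM (log2 fold change 0.77, adjusted p = 1.24e-06). Camk2b, a further CaM kinase II gene, was at 3.01, 3.42 and 4.04 CPM in WT and 2.47, 2.02 and 2.12 CPM in cKO and fell (-0.66, adjusted p = 0.00976). The libraries of the 2 groups did not overlap for either gene.

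Among the 3 cKO libraries, replicate 2 was the nearest to the WT mean for 12 of the 19 called members (63.2%) and for 11 of the 16 members that were tested and not called (68.8%). The same library was the nearest for 56.6% of all called genes. Among all tested genes without a call the 3 libraries were more even, at 32.0%, 37.9% and 30.1% for cKO replicates 1, 2 and 3. The same library had the highest remaining Pbrm1 level and, at 7.81%, the mitochondrial share nearest to WT. Without it, 23 of the 35 members were called instead of 19, while 7054 of 15671 genes in all were called (45.0%) instead of 6723 of 15376. Among the members, the 6 gained were Cacnb3, Ryr2, Orai2, Stim1, Trpc4 and Trpv2, while Cacna1d and Stim2 were lost. The part of the Pbrm1 level in this pattern was not tested.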

How the data were processed

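RNA-seq was analysed from 3 WT and 3 Pbrm1 cKO libraries of oviductal smooth muscle cells. The authors deposited whole-number read counts per gene with summed exon lengths in bases. Per the file headers, featureCounts 1.6.4 counted reads over GENCODE M18 exons in reverse-stranded mode, which leaves out reads that map to several places, so genes with near-identical copies are undercounted. The submitters' processing notes name cutadapt, HISAT2 and GRCm38.p5. Symbols were taken from GENCODE M21 (54079 of 54232 genes matched), where Stimate is listed as Tmem110.

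Counts were tested in R 4.3.3 with edgeR 4.0.16 (TMM, filterByExpr, quasi-likelihood F-test, two-sided, with Benjamini-Hochberg adjustment over 15376 genes). CPM and RPKM were computed from the counts with TMM factors, and errors are SD over libraries. The study used DESeq2 for its uterine libraries, and DESeq2 1.42.0 and limma-voom (limma 3.58.1) were alternatives here, as were other scalings and filters, a replicate block and leaving out each library. The edgeR step was tested on simulated counts. Family shares were compared with exact permutation tests over libraries. The depth, taken without TMM factors, sets a limit of 0.158 to 0.195 CPM for 3 counts. Reads had no molecular identifiers, so limits cover counting error only.

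The members and the gene lists were chosen with earlier results of these data known. Named genes were Pbrm1, all members, and of the other calcium genes those called, up to 8 by size of change with a mean of at least 1 CPM. Outside this rule, Cacna1a, Atp2b2 and Slc24a5 were named after their values were seen. The replicate numbers were not treated as pairs in the main fit. Deviations of same-numbered libraries correlated at -0.02, 0.04 and 0.09, which does not settle whether the numbers mark pairs.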

Additional observations from a re-analysis of the deposited data

How the results depend on the processing

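Of the 19 calls among the calcium genes, 14 held in all 14 alternatives. The calls of Cacna1d, Stim2, Trpc1, Atp2b1 and Piezo1 were lost in at least 1, and 6 members were gained in at least 1. The count of called members was 19 with either other filter on low counts and 21 with library size scaling. It was 18 with the DESeq2 size factors, upper quartile scaling or limma-voom, and 17 with DESeq2. Of all genes, DESeq2 called 5535 and the other settings just named called 6404 to 6925. The tested genes numbered 15376, except with the other filters (29342 and 14069). Of the members, 15 were called at an adjusted p under 0.01. At an adjusted p under 0.05 with a 1.5-fold change, 3 were called, since most changes were small. All genes were not counted under these cuts, so whether 15 or 3 of 35 is few cannot be said. Leaving out 1 library gave 16 to 23 called members and 5532 to 7054 called genes in all. With the replicate number as a block, 6908 genes were called (6617 of them shared with the 6723 of the unblocked fit), with 21 members and 26 further calcium genes. This block added Cacnb3 and Stim1. Deviations of same-numbered libraries correlated weakly, which does not settle whether the numbers mark pairs, so these values are given for completeness. The sign of 2 members near 0 turned: Trpm4 went to 0.0055 without WT replicate 1 and to 0.029 without cKO replicate 2 (range -0.13 to 0.029 over the libraries left out), and Jph1 to -0.035 without cKO replicate 1 (range -0.035 to 0.15). The cause was not tested. No scaling moved the median of all genes by more than 0.02 on the log2 scale. Depth limits what can be said about Ryr1, Ryr2, Ryr3, Pln and Casq2, which had at most 16 counts in any library.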
